A study of Mus musculus with 6 samples.

Results

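The question here was whether oxidised low-density lipoprotein (oxLDL) changed gene expression by a different amount in macrophages that carry a Kindlin3-integrin mutation than in wild-type macrophages. It was answered gene by gene as an interaction, the oxLDL change in mutant cells minus the oxLDL change in wild-type cells, so that a value below 0 means a smaller rise or a larger fall in the mutant. The comparison used all 6 libraries of the series. Cells came from the marrow of mice labelled C57BL/6-Kindlin3-integrin mutant or C57BL/6, WT and had become macrophages over 7 days in L929-conditioned medium, which supplies macrophage colony-stimulating factor. Of the mutant, 2 libraries were untreated and 2 had received 50 µg/ml oxLDL for 24 hours. Of wild type there was 1 library without and 1 with oxLDL. Mutant samples are titled KI. The sources used here state neither the age and sex of the mice nor the kind of mutation. They also do not say whether the numbered mutant samples came from separate animals or cultures. The p-values therefore measure only the spread between mutant libraries of the same treatment. Wild type, with 1 library per arm, adds no spread. At a false discovery rate of 0.05, 42 of 12659 genes tested passed for the interaction. Transcripts of pancreatic enzymes and hormones stayed in the fit and the adjustment and were left out of this count. With them removed before normalisation, 22 genes passed.

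oxLDL carries cholesterol and oxidised lipids into macrophages through scavenger receptors, and is known to switch on antioxidant and lipid-handling genes while inflammatory and interferon-induced genes change as well. Kindlin-3, the product of Fermt3, is the kindlin of blood cells. It binds the tails of integrin beta subunits and, with talin, brings integrins into the state that holds ligand, and integrin signals in turn act on the actin cytoskeleton and on genes of adhesion, proteolysis and growth.

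The libraries held between 11281692 and 24273551 counts assigned to genes. The 15 macrophage markers had counts in every library, with summed levels between 12600 and 34300 CPM (counts scaled to a common library size with TMM normalisation factors). Fermt3 measured 241 and 249 CPM in untreated mutant, 145.7 and 153 CPM in oxLDL-treated mutant, 403 CPM in untreated wild type and 188 CPM in oxLDL-treated wild type, and its interaction did not pass (log2 0.39 ± 0.15, SE; adjusted p = 0.441). Pancreatic transcripts stood in 3 libraries: 65 marker genes summed to 309 CPM in untreated wild type and to 230 and 183 CPM in oxLDL-treated mutant, against 2.62 to 4.17 CPM in the other libraries. That distribution has the sign of the interaction, and 20 of 30 tested markers passed; counted in, they bring the genes that passed to 62, or 0.489% of 12689. They are left out of each count below, and the libraries cannot be left out, since each wild-type group is 1 library. In the same 3 libraries, Col1a1 and Pcsk2 had at least 10 counts each and at most 1 count in the others, and neither passed. Neutrophil markers summed to 217 CPM in untreated wild type and 82.3 to 139 CPM elsewhere, and mast cell markers to 70.4 and 24.6 CPM in treated mutant and 0.256 to 6.84 CPM elsewhere. The mast cell sums rest on few genes. Of the 10 markers, 6 and 8 had 0 counts in the treated mutant libraries and 7 or 8 elsewhere, and 4 had none in any library. The part of these transcripts in the results was not tested. In bulk RNA, fewer cells of a type and less RNA per cell cannot be told apart.

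Genes that changed strongly in wild type mostly changed in the same direction in the mutant. Of 786 genes at least 2-fold higher with oxLDL in wild type and with at least 5 CPM there, 94.0% were also higher in the mutant, where the median log2 change was 1.07 against 1.53 in wild type. Of 1147 genes at least 2-fold lower in wild type, 99.1% were lower in the mutant as well, with medians of -1.50 and -1.71. Both sets were picked by their wild-type change, 1 library against 1, which can by itself make the wild-type medians larger. The medians therefore do not compare the size of the 2 responses. The mutant and wild-type responses share no library. Across 12657 genes their Pearson correlation was 0.72, which describes genes of the same 6 libraries and has no test. The interaction had a median of 0.03 over all genes. By size, 25.4% of genes differed at least 2-fold with oxLDL in wild type and 21.1% in the mutant, where 35.4% passed the test.

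Among the genes that passed for the interaction, the mutant response was mostly the lower of the 2. Of 12659 genes, 38 (0.3%) passed with a lower response in the mutant and 4 (0.0316%) with a higher one, in total 0.332%. At an unadjusted p under 0.05, edgeR's quasi-likelihood test gave 1363 genes, 10.8% of those tested. Of the 38, 15 had values above 0 in both genotypes, 4 below 0 in both, and 19 below 0 in the mutant and above 0 in wild type, 15 of these with a mutant fall that passed (background 19.2%). Of the 4, 3 were above 0 in the mutant and below 0 in wild type and 1 was below 0 in both. The genes were also sorted by size alone, where a class name refers to changes of at least 2-fold. Weaker induction (26 genes) means such a rise in wild type and a smaller rise, no 2-fold change or a fall of under 2-fold in the mutant. Stronger fall (7) means a fall of at least 2-fold in the mutant and a smaller fall or a change of under 2-fold, in either direction, in wild type. Opposite direction (2) means at least 2-fold in both genotypes with opposite signs, weaker fall (2) a fall of at least 2-fold in wild type that the mutant lacked or had to a smaller degree, and in 5 genes both were under 2-fold. By size alone, with no test, 8.97% of all genes would be sorted as weaker induction and 6.84% as stronger fall. Weaker fall would hold 10.6% of all genes, and both responses would be under 2-fold in 69.6%. No gene passed in the classes of a stronger induction in the mutant or of a rise against a wild-type fall with at least 2-fold in both, although 32 and 20 genes of these kinds had an unadjusted p under 0.05 in edgeR's test and DESeq2 called 0 and 1. By size alone these classes hold 3.22% and 0.284% of all genes. Their emptiness depends on the limit: at 1.5-fold they held 1 and 2 genes that passed.

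The count depends on single mutant libraries. Fits repeated with other settings (refits) reuse the libraries by which the genes were picked, and none could leave out a wild-type library. A kept direction or a low p in a refit therefore does not test the genes anew. It was 7 without mutant untreated replicate 1, 13 without mutant untreated replicate 2, 219 without mutant oxLDL replicate 1 and 64 without mutant oxLDL replicate 2, and it was 22 when pancreatic markers were removed before the adjustment. The 42 genes kept their direction and an unadjusted p under 0.05 in each of the 11 refits, and 6 of them passed in each: Procr, Angptl2, Inf2, Cd109, Sdc1 and Fos.

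**Figure D1:**
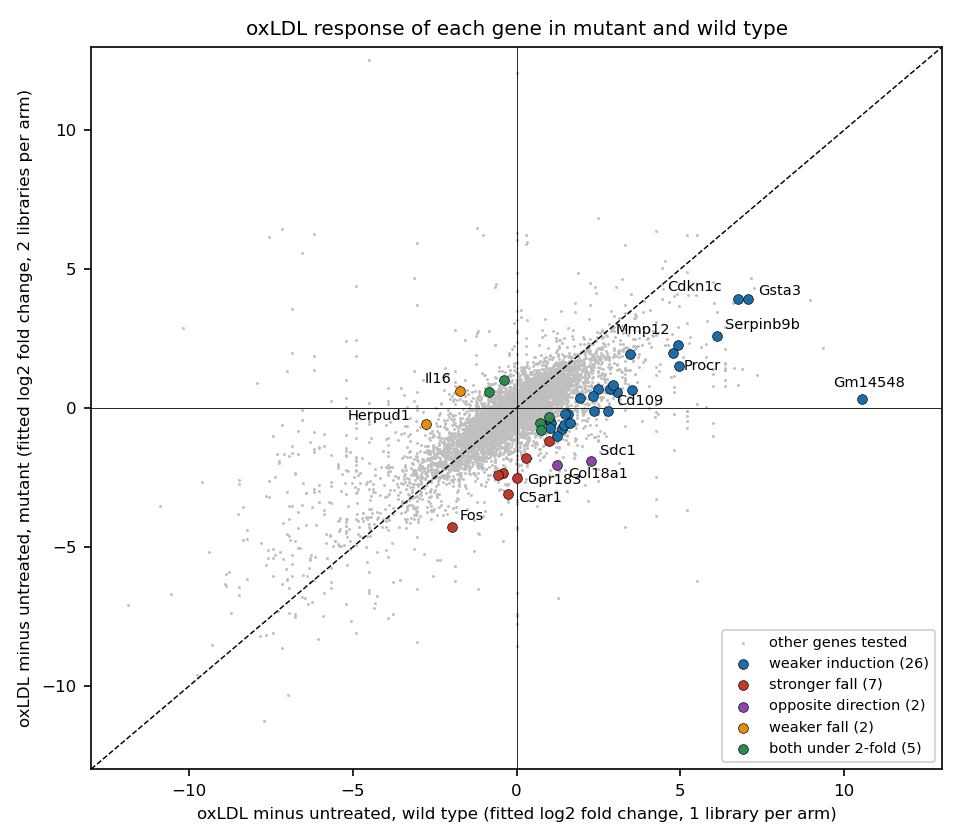
Fitted log2 fold change under oxLDL in wild type (x axis, 1 library per arm) and mutant (y axis, 2 libraries per arm) for each non-pancreatic gene tested. Grey points are genes that did not pass for the interaction, coloured points are the 42 that did, by class, and the dashed line marks equal responses; 38 of the 42 lie below it. The x value of Gm14548 rests on 0 counts in untreated wild type and is not an estimate of its fold.

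The weaker induction class was led by genes that oxLDL raised many-fold in wild type from a low untreated level. That level was 12 counts for Gsta3, 7 for Serpinb9b and 17 for Gprc5b, in 1 library, so their wild-type folds are uncertain. Gsta3, a glutathione transferase that conjugates lipid peroxidation products, measured 0.614 CPM in untreated and 83.0 CPM in oxLDL-treated wild type, a 134-fold difference. In the mutant it measured 9.53 and 8.35 CPM untreated and 139 and 134 CPM with oxLDL, a 15.3-fold rise (adjusted p = 0.000168), and the interaction was -3.13 ± 0.26 (log2, SE; adjusted p = 0.0140). Both treated mutant libraries thus stood above treated wild type, and the untreated ones stood 14.4-fold above untreated wild type.

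Serpinb9b, a serine protease inhibitor of the ov-serpin family, measured 0.358 CPM in untreated and 25.4 CPM in treated wild type, and 1.76 and 1.56 CPM untreated and 10.4 and 9.86 CPM treated in the mutant (interaction -3.51 ± 0.40, adjusted p = 0.0359). Here the mutant was higher before and lower after oxLDL. Gprc5b, an orphan G protein-coupled receptor, showed the same order, with 0.870 and 27.6 CPM in wild type and 5.12 and 3.40 CPM rising to 12 and 11.9 CPM in the mutant (-3.47 ± 0.43, adjusted p = 0.0463). Neither passed without mutant untreated replicate 1 or replicate 2.

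Cd109, a membrane-anchored protein of the alpha-2-macroglobulin family that binds TGF-beta, showed no induction in the mutant that passed. It measured 92.1 and 112 CPM untreated and 89.8 and 99.2 CPM treated (log2 change -0.11, adjusted p = 0.529), while wild type had 6.65 CPM untreated and 46.1 CPM treated. All 4 mutant libraries lay above both wild-type libraries, and the interaction was -2.91 ± 0.24 (adjusted p = 0.0140). Gm14548 is a gene model of the paired immunoglobulin-like receptor family. It had 0 counts in untreated wild type against 10.7 CPM with oxLDL, at least 69.6-fold higher over a floor of 3 counts in that library, and 9.79 to 15.2 CPM in the 4 mutant libraries. Of its sequence 59.3% is shared with other genes, among them Pirb and Pira2, so its counts are uncertain.

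Among the other genes with a weaker induction, several act at the cell surface or outside the cell. Procr, the endothelial protein C receptor, rose from 11.6 and 13.3 to 50.9 and 47.7 CPM in the mutant and measured 4.45 and 124 CPM in wild type (interaction -2.81 ± 0.21). Angptl2, a secreted angiopoietin-like protein, measured 9.97 and 115 CPM in wild type and 71.4 and 60.4 against 109.6 and 98.0 CPM in the mutant (-2.87 ± 0.22). Mmp12, the macrophage elastase, measured 49.2 CPM in untreated and 1510.2 CPM in treated wild type, and 149 and 108 CPM rising to 598 and 642 CPM in the mutant (-2.67 ± 0.30). For Procr and Mmp12 the mutant stood above wild type before oxLDL and below it after, whereas treated Angptl2 differed little between genotypes. Plau, the urokinase-type plasminogen activator, fell in the mutant from 173 and 176 to 110.5 and 96.6 CPM (adjusted p = 0.00346), against 25.3 and 65.8 CPM in wild type. The Notch ligand Jag1 had 9.16 and 70.1 CPM in wild type and 16.3 to 33.2 CPM across the mutant. Cd9, a tetraspanin that associates with integrins, and Emp1, an epithelial membrane protein, differed 5.05-fold and 7.19-fold between the wild-type libraries and rose 1.36-fold and 1.62-fold in the mutant.

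Inf2, a formin that assembles and severs actin filaments, measured 15.4 and 80.1 CPM in wild type and between 62.2 and 75.1 CPM in the 4 mutant libraries (interaction -2.50 ± 0.20, adjusted p = 0.0140). Its mutant response did not pass (adjusted p = 0.438). Pls3, an actin-bundling plastin, measured 24.8 and 76.0 CPM in wild type and fell in the mutant from 76.8 and 72.2 to 58.2 and 44.3 CPM. Rai14, an actin-associated ankyrin repeat protein, measured 14.1 and 79.9 CPM in wild type and rose in the mutant from 52.2 and 55.0 to 92.8 and 79.4 CPM. Peak1, a pseudokinase of focal adhesions, measured 168 and 339 CPM in wild type and fell in the mutant from 279 and 267 to 198 and 200.3 CPM. In these 4 genes the untreated mutant libraries were nearer to treated than to untreated wild type. S100a10, the annexin A2 partner, measured 39.2 and 108 CPM in wild type and between 91.5 and 119 CPM in the mutant, where its change did not pass (adjusted p = 0.167).

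The other genes of the class have varied roles. Cdkn1c, which encodes the cell cycle inhibitor p57, rose in the mutant from 4.50 and 3.82 to 60.0 and 64.8 CPM and measured 1.89 and 207 CPM in wild type (interaction -2.86 ± 0.24, adjusted p = 0.0140). Pcna, the DNA polymerase clamp, measured 183 and 383 CPM in wild type and fell in the mutant from 329.6 and 333 to 243 and 209 CPM, with 13.8% of its sequence shared with other genes. Cdkn1c thus rose less in the mutant, whereas Pcna moved down in the mutant and stood higher with oxLDL in wild type. The MAP kinase phosphatase gene Dusp4 rose 3.81-fold in the mutant and differed 11-fold in wild type. Cebpb, a transcription factor of myeloid cells, fell in the mutant from 31.2 and 28.1 to 17.3 and 18.3 CPM and measured 16.7 and 34.1 CPM in wild type. Akr1b8, an aldo-keto reductase, measured 13.8 and 116 CPM in wild type and rose in the mutant from 31.4 and 30.7 to 51.2 and 42.2 CPM. Interactions of the remaining genes were -2.23 for Ptchd1, -2.07 for the adenylosuccinate synthase Adssl1, -1.79 for the peptide-amidating enzyme Pam and -1.55 for Fam129b.

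**Figure D2:**
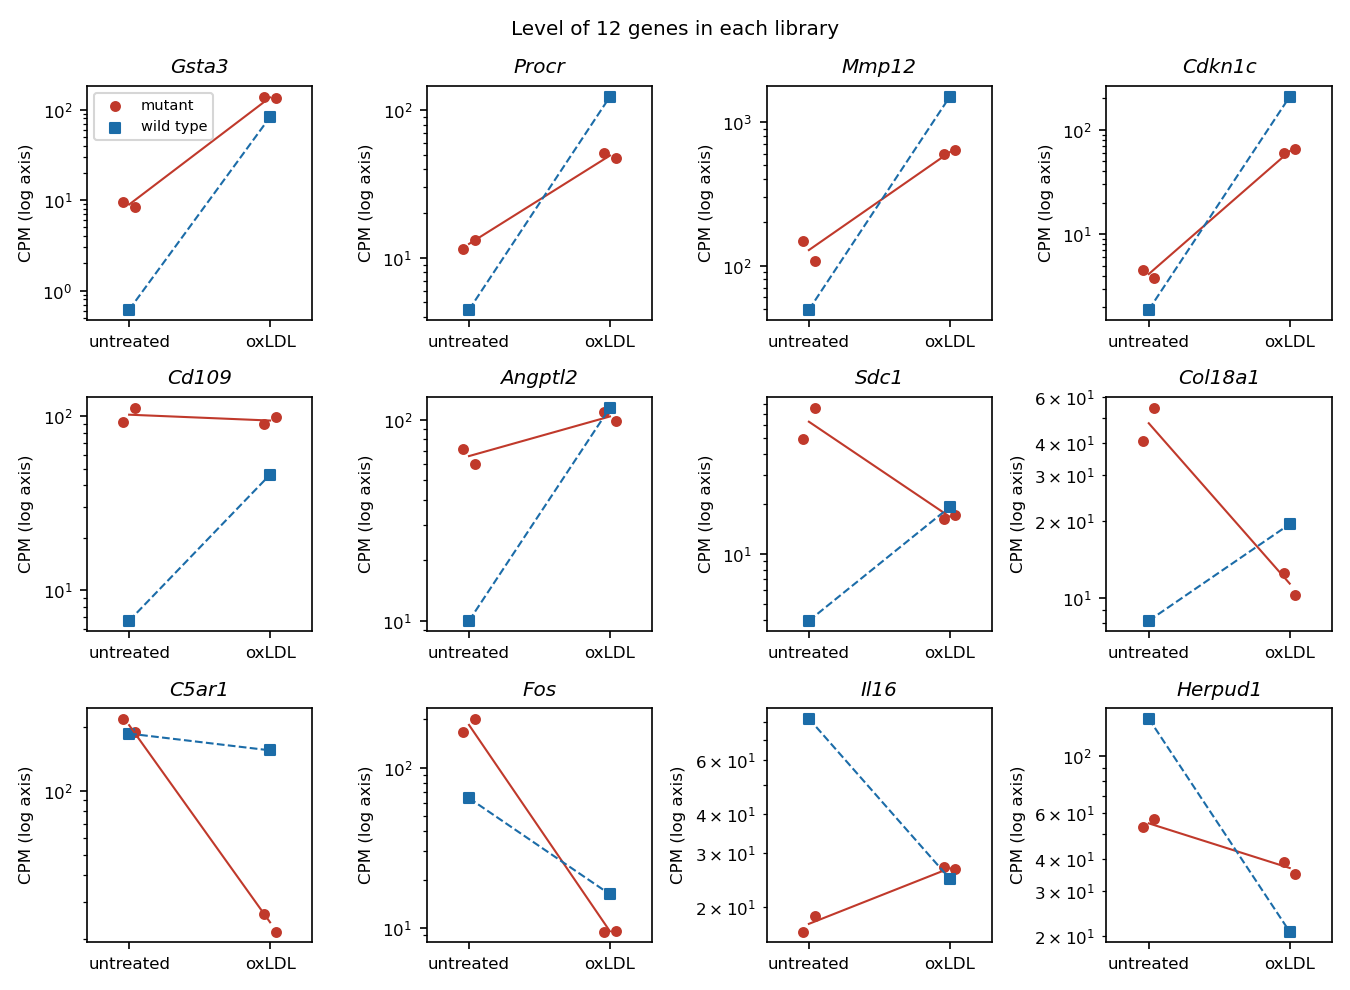
Level in CPM (log axis) of 12 genes in each of the 6 libraries, untreated on the left and oxLDL on the right of each panel. Circles are the mutant libraries joined at their means, squares are the single wild-type libraries; for Sdc1 and Col18a1 the lines cross with opposite slopes, and for Cd109 the mutant line is nearly level.

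Across the 26 genes the untreated mutant stood above untreated wild type in both libraries. The difference was at least 2-fold in 22 of them, where 12.3% of all genes tested are that much higher by size. In the 25 genes with counts in untreated wild type, the median log2 change with oxLDL was 2.50 in wild type and 0.44 in the mutant. The untreated genotype difference equalled a median of 77.2% of the wild-type rise on the log2 scale, with a range from 16.6% to 202%, and exceeded 50% of it in 17 genes. With oxLDL, both mutant libraries were below wild type in 19 of the 26, by at least 2-fold in 7. The mutant's own response passed upward in 14 (background 16.3%), passed downward in 7 (background 19.2%) and did not pass in 5. These quantities share libraries with the interaction and describe it, they do not test it again. In particular the single untreated wild-type library enters both the baseline difference and the wild-type response, so a departure of that library alone and a difference of genotype cannot be told apart.

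Promoter sequences are shown for 3 genes of this class, Gsta3, Procr and Angptl2, and for Dusp1 of the stronger fall class, because they carry letters of elements through which oxidant and growth signals are known to act. RefSeq promoters on GRCm38.p6 were found for 36 of the 42 genes, and the 250 bases before the first listed start site of each gene were searched on both strands. The antioxidant response element, searched as TGACNNNGC, was present in 9 of 36 (25.0%) and in 10.1% of 27025 promoters, 1 per gene. The AP-1 motif TGANTCA, which can overlap it, was present in 4 of 36 (11.1%, against 6.87%) and the cyclic AMP response element TGACGTCA in 1 (2.78%, against 1.62%). NF-kB motifs occurred in 3 of 36 (8.33%, against 3.75%), the TEAD motif GGAATG in 3 (8.33%, against 12.6%) and the SRF CArG box in 1 (2.78%, against 1.40%). The 27025 promoters were not limited to genes expressed and tested here, so the shares compare unlike sets of genes. The motifs were chosen after values were seen and a match describes letters, not a bound site. Capitals below mark the matches, read 5′ to 3′ on the gene's strand and ending 1 base before the start.
Gsta3, chr1:21240335-21240584, + strand: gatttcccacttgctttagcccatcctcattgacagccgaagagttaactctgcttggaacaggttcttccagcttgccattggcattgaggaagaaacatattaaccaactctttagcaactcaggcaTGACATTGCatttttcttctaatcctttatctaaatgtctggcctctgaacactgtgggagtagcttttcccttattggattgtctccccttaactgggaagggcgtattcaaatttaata
Procr, chr2:155750967-155751216, + strand: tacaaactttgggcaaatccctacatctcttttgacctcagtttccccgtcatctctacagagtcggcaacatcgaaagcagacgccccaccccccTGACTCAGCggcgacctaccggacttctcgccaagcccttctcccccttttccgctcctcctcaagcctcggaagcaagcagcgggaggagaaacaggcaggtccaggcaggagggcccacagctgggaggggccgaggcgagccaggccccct
Angptl2, chr2:33215711-33215960, + strand: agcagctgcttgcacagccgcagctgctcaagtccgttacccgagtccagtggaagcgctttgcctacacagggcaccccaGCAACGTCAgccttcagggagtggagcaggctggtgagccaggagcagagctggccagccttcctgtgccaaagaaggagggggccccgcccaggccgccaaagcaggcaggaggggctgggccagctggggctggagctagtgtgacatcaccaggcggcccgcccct
Dusp1, chr17:26508473-26508722, - strand: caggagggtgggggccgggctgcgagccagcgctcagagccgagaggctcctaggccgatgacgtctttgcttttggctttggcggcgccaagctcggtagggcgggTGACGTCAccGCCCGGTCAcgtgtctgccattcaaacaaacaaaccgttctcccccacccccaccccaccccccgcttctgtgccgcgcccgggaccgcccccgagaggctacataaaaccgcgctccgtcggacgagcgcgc
In Procr a single stretch, 154 to 146 bases before the start, holds both the AP-1 and the antioxidant element letters. In Dusp1 the cyclic AMP element lies 143 to 136 bases and the antioxidant element letters 133 to 125 bases before the start.

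Sdc1 and Col18a1 moved in opposite directions by at least 2-fold, down in the mutant and up in wild type. Both are heparan sulfate proteoglycans: Sdc1 is syndecan-1, a cell surface co-receptor that works with integrins, and Col18a1 is the basement membrane collagen whose fragment is endostatin. Sdc1 measured 49.2 and 76.4 CPM in untreated and 16.2 and 17.2 CPM in treated mutant cells, against 3.94 and 19.2 CPM in wild type (interaction -4.19 ± 0.41, adjusted p = 0.0236). Col18a1 measured 40.5 and 54.7 CPM untreated and 12.5 and 10.3 CPM treated in the mutant, against 8.18 and 19.4 CPM in wild type (-3.30 ± 0.34, adjusted p = 0.0282). The untreated mutant was 15.9-fold and 5.82-fold above untreated wild type, and with oxLDL the genotypes differed 1.15-fold and 1.70-fold, the mutant lower. By size alone 0.474% of all genes tested fell in the mutant and rose in wild type by 2-fold or more. The Col18a1 call ended without mutant untreated replicate 1 or 2, with adjusted p up to 0.0612.

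The stronger fall class included receptors for chemotactic signals. C5ar1, the receptor of the complement fragment C5a, measured 219 and 189 CPM in untreated and 26.3 and 21.6 CPM in treated mutant cells, an 8.50-fold fall, against 186 and 155 CPM in wild type (interaction -2.83 ± 0.23, adjusted p = 0.0140). Untreated wild type lay just below both untreated mutant libraries (1.10-fold), and the genotypes stood apart in oxLDL-treated cells, 6.47-fold. The call ended narrowly without mutant untreated replicate 1 (adjusted p = 0.0501). Gpr183, an oxysterol receptor that guides immune cell migration, fell in the mutant from 30.5 and 31.8 to 5.07 and 5.75 CPM, while wild type had 6.70 and 6.71 CPM (-2.53 ± 0.26, adjusted p = 0.0286). Its untreated mutant libraries alone stood apart, with the other 4 libraries between 5.07 and 6.71 CPM. Calcrl, the receptor subunit for calcitonin gene-related peptide and adrenomedullin, fell from 152 and 138 to 41.2 and 41.9 CPM against 57.0 and 70.1 CPM in wild type (-2.10 ± 0.17).

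The class held 2 immediate early genes. Fos, a subunit of AP-1, measured 167 and 201 CPM untreated and 9.49 and 9.61 CPM treated in the mutant, against 64.4 and 16.2 CPM in wild type. The mutant fell 19.3-fold, wild type differed 3.97-fold, and the interaction was -2.28 ± 0.22 (adjusted p = 0.0207). Dusp1, the phosphatase that ends MAP kinase signalling and is induced with Fos, fell in the mutant from 32.5 and 32.1 to 13.4 and 14.7 CPM, against 16.7 and 33.1 CPM in wild type (-2.19 ± 0.20, adjusted p = 0.0183). For Fos the mutant began higher and ended lower, and for Dusp1 wild type with oxLDL reached the level of the untreated mutant. Pcdh7, a protocadherin, and Rnd3 fell 5.11-fold and 5.30-fold in the mutant from untreated levels 4.63-fold and 3.21-fold above wild type, and with oxLDL they differed 1.2-fold and 1.12-fold between genotypes.

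**Figure D3:**
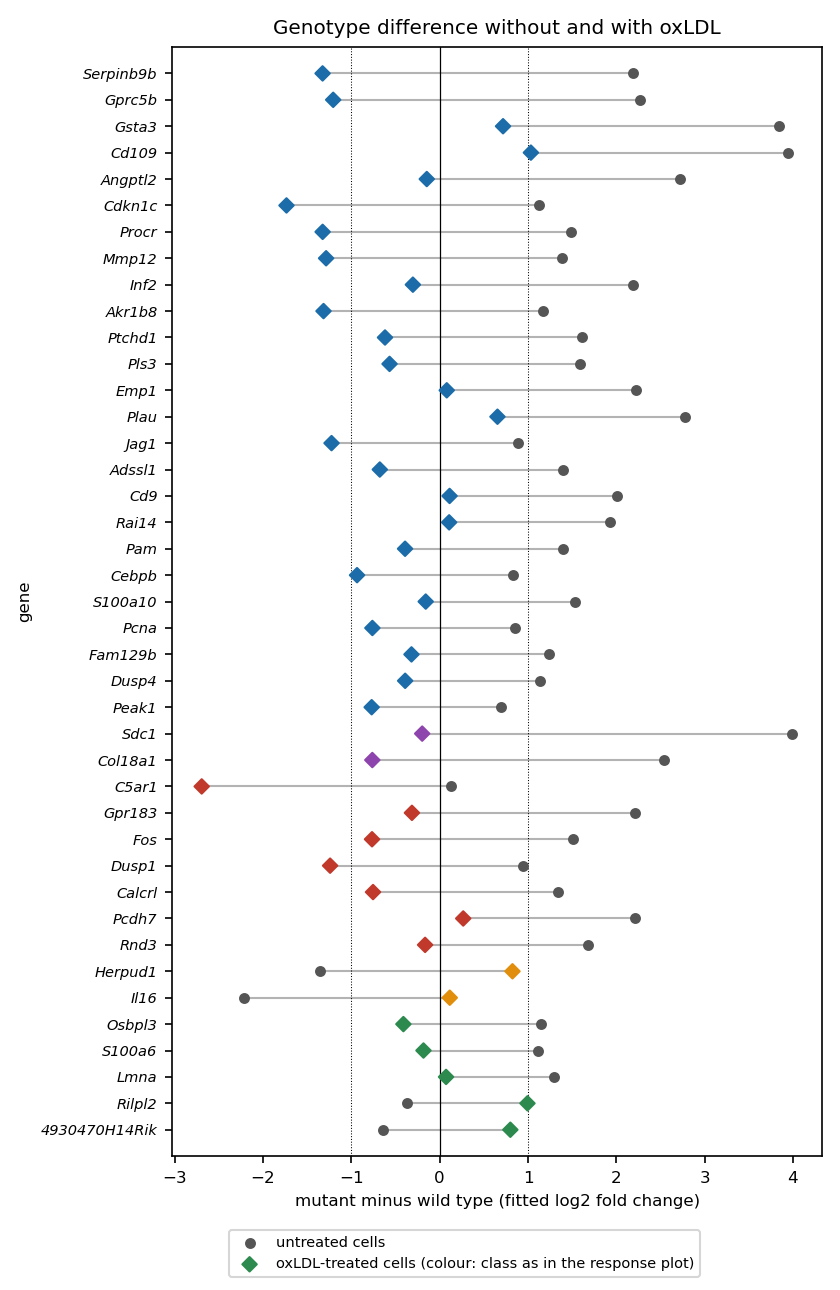
Fitted log2 difference of mutant minus wild type in untreated cells (circles) and oxLDL-treated cells (diamonds, coloured by response class) for the 41 genes with counts in untreated wild type; dotted lines mark 2-fold. Circles of the 37 genes with a lower mutant response stand right of 0, and C5ar1 has the diamond farthest to the left.

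A higher response in the mutant was seen in 4 genes. Il16, which encodes a precursor cleaved into a CD4-binding cytokine, rose in the mutant from 16.6 and 18.6 to 27.0 and 26.5 CPM and measured 81.9 CPM in untreated and 24.7 CPM in treated wild type (interaction 2.33 ± 0.19, adjusted p = 0.0140). Herpud1, an endoplasmic reticulum protein of the unfolded protein response, measured 140.3 and 20.8 CPM in wild type and fell in the mutant from 52.9 and 56.8 to 38.7 and 34.9 CPM (2.18 ± 0.18, adjusted p = 0.0140). In both, untreated wild type was the high library, where 2.95% of all genes tested are at least 2-fold lower in untreated mutant by size. That library also had the highest pancreatic sum. In the treated mutant libraries, which hold pancreatic transcripts too, Il16, Rilpl2 and 4930470H14Rik were higher than in the untreated ones and Herpud1 was lower, and the part of this in the results was not tested. Rilpl2, a partner of Rab proteins, rose in the mutant from 48.4 and 45.8 to 92.2 and 96 CPM against 61.0 and 47.2 CPM in wild type (1.37 ± 0.16, adjusted p = 0.0401). The last, 4930470H14Rik, shares 41.4% of its sequence with other gene models and is uncertain (1.44 ± 0.18, adjusted p = 0.0493).

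Lmna, S100a6 and Osbpl3 changed less than 2-fold in each genotype but in different directions. Lmna, the gene of the nuclear lamins A and C, fell in the mutant from 189.6 and 194 to 133 and 135 CPM and measured 78.1 and 127 CPM in wild type (interaction -1.22 ± 0.15, adjusted p = 0.0394). S100a6, a calcium-binding protein, fell in the mutant from 108.3 and 107.8 to 86.2 and 86.6 CPM, against 49.8 and 98.0 CPM in wild type. Osbpl3, an oxysterol-binding protein relative that affects integrin activity, measured 31.5 and 30.7 falling to 17.6 and 18.2 CPM, against 14.1 and 23.8 CPM. In each of the 3 the untreated mutant was at least 2-fold above untreated wild type and treated cells differed by less than 1.5-fold.

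Across classes, 32 of the 38 genes with a lower mutant response were at least 2-fold higher in the untreated mutant. Of all genes tested, 12.3% were that much higher there by size. The untreated difference is itself part of the interaction by which the 38 were picked, which favours a high untreated mutant. The 2 shares therefore describe the 38 and do not test them. In 28 of the 38 the oxLDL-treated genotypes lay within 2-fold of each other. That share was not counted over all genes, so it is not read as particular to the 38. With oxLDL the mutant was at least 2-fold lower in 9 and at least 2-fold higher in 1, Cd109. Over all genes tested, 6.88% passed between genotypes in untreated cells (4.25% higher and 2.63% lower in the mutant) and 0.387% in oxLDL-treated cells. Just inside the threshold stood Gprc5b, Osbpl3 and 4930470H14Rik, with adjusted p of 0.0463, 0.0493 and 0.0493. Just outside stood Syne3 (interaction -1.81), Cd209c (-2.55) and the metalloprotease gene Adam8 (-1.53), with adjusted p of 0.0513, 0.0513 and 0.0528.

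**Figure D4:**
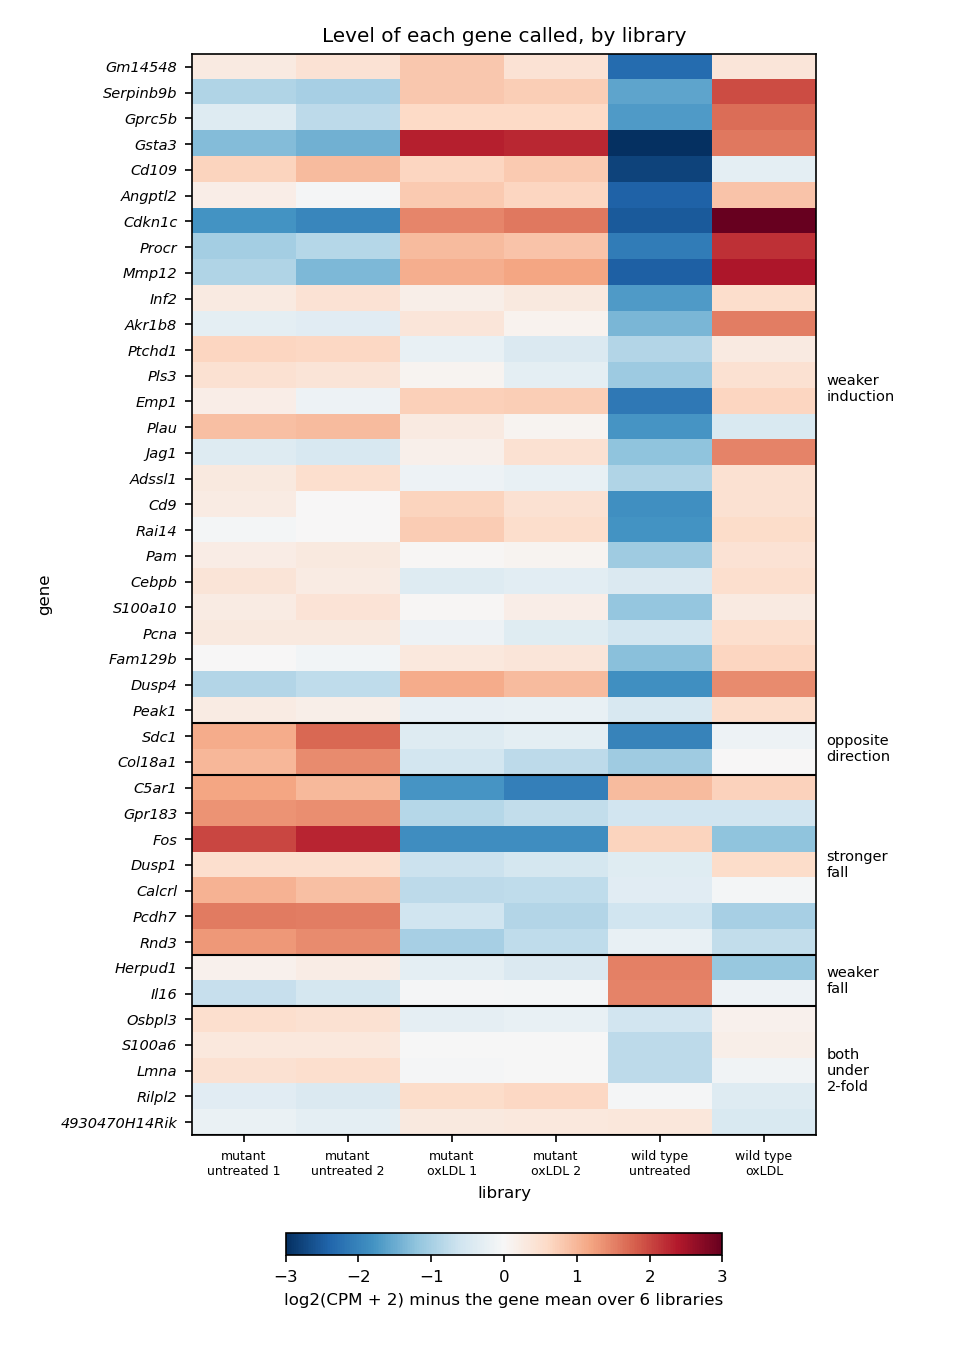
log2(CPM + 2) of the 42 genes in each library minus the gene's mean over the 6 libraries, by response class. In the weaker induction block the untreated wild-type column is the lowest of the 6 for each of the 26 genes, by little for Cebpb.

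Of 25 pathway lists, 7 held a gene that passed, and over the 700 listed genes tested 10 passed, where 0.332% of all genes did. Immediate early and feedback genes had the most, 3 of 27 (Fos, Dusp1 and Dusp4), with a list median of -0.74 against 0.03 over all genes. Matrix and protease genes had 2 of 31 (Plau and Mmp12, median -0.48), and the ATF4 and endoplasmic reticulum stress list had 2 of 29 in opposite directions (Herpud1 with a higher and Cebpb with a lower response in the mutant, median 0.02). Antioxidant genes of the NRF2 programme had 1 of 41 (Gsta3, median -0.31). In edgeR's test 11 of the 41 had an unadjusted p under 0.05, all with a lower response in the mutant, and DESeq2 called 5. Of all genes, 10.8% had an unadjusted p under 0.05. Nqo1, a quinone reductase of that programme, measured 4.59 and 3.04 CPM untreated and 10.5 and 9.51 CPM treated in the mutant, against 0.614 and 19.1 CPM in wild type, and did not pass (-3.54 ± 0.47, adjusted p = 0.0609). Complement and engulfment genes had 1 of 32 (C5ar1), replication genes 1 of 41 (Pcna) and growth factor receptor and lineage genes 1 of 34 (Cebpb). At an unadjusted p under 0.05 in edgeR's test the immediate early, matrix and ATF4 lists had 10, 11 and 4 genes. Of these, 10, 9 and 1 had a lower response in the mutant. The complement, replication and lineage lists had 11, 4 and 9, of which 6, 4 and 8 were lower.

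The interferon, sterol and lysosome lists, which moved with oxLDL in both genotypes, held no gene that passed for the interaction. Interferon-stimulated genes had a median log2 change of -2.84 in the mutant and -2.94 in wild type, and 0 of 45 passed for the interaction in edgeR's test, with 8 at an unadjusted p under 0.05, of which 1 had a lower response in the mutant, and 2 by DESeq2. Sterol synthesis genes had medians of -1.36 and -1.19, with 0 of 24 passing, 3 at an unadjusted p under 0.05 and 0 by DESeq2. Lysosomal genes had medians of 0.74 and 0.69, with 0 of 39 passing, 3 at an unadjusted p under 0.05 and 0 by DESeq2. Of 29 glycolysis and hypoxia genes 0 passed in edgeR's test and 2 by DESeq2, but 14 had an unadjusted p under 0.05, of which 13 had a lower response in the mutant, and the list medians were 0.09 in the mutant and 0.74 in wild type. Of all genes, 0.332% passed in edgeR's test and 10.8% had an unadjusted p under 0.05, so 0 in a short list is near the share that passed. A p that misses the threshold does not show equal responses, and the median standard error of an interaction was 0.26 on the log2 scale.

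Integrin genes gave no interaction that passed, with 0 of 19 in edgeR's test, 4 at an unadjusted p under 0.05 and 1 by DESeq2. Of all genes, 0.332% passed in edgeR's test and 10.8% had an unadjusted p under 0.05. A count of 0 in a list of this size is near the share that passed and does not set integrin genes apart. Itgb3, the beta 3 subunit, measured 14.6 and 7.71 CPM untreated and 176 and 65.6 CPM treated in the mutant, against 0.870 and 60.8 CPM in wild type (interaction -2.66 ± 1.17, adjusted p = 0.474). It passed with the replicate number as a block (adjusted p = 0.0229), without mutant oxLDL replicate 1 (0.0245) and with no filter on low counts (0.00645). The treated mutant libraries stood far apart, one of them close to treated wild type. Itgal (CD11a) measured 477 and 824 CPM falling to 37.9 and 25.8 CPM in the mutant and 1522 and 36.4 CPM in wild type (1.03 ± 0.52, adjusted p = 0.528). Itgax (CD11c) measured 42.5 to 58.7 CPM across the mutant and 6.14 and 13.7 CPM in wild type (-0.94 ± 0.30, adjusted p = 0.343), and Itgav (alpha v) had an interaction of -0.83 ± 0.24 (adjusted p = 0.295). With no filter on low counts Itgax and Itgav passed, with adjusted p of 0.0492 and 0.0319. Itgb1 and Itgb2 had interactions of -0.13 ± 0.20 and 0.06 ± 0.21 (adjusted p = 0.863 and 0.944). Itgam (CD11b) had 0.67 ± 0.48 (adjusted p = 0.655), and 65.2% of its 75-base stretches also occur in another gene model. Of 58 genes of integrin adaptors and kinases 0 passed in edgeR's test, 15 had an unadjusted p under 0.05 and 1 passed in DESeq2, and of 36 actin and SRF target genes 0, 5 and 1 did.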

How the data were processed

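Polyadenylated RNA of 6 samples was sequenced, 1 library each. The submitters' processing notes name Bowtie2 2.1.0 and RSEM 1.2.15. They also name a human build although the gene symbols are of mouse, and the mouse build used for counting is not stated. The authors deposited expected counts per gene, estimates that can hold fractions. They were rounded, and 12689 of 24054 genes that passed filterByExpr were fitted with edgeR 4.0.16 under R 4.3.3 (TMM factors, 4 group means, quasi-likelihood F-test, Benjamini-Hochberg adjustment over all genes tested). The fit had 2 residual degrees of freedom, both from the mutant pairs. Wild type, with a single library per arm, was taken to have the same spread, and the wild-type response has no test. The SE of a log2 fold change is its size divided by the square root of F. Pancreatic markers stayed in the fit and were left out of counts. The mutant pairs had median variances of 4.48 and 6.80 times a Poisson count, so neither is 1 library deposited in duplicate. Floors are 3 counts and cover counting error.

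The comparison, gene lists and classes were chosen with earlier results of these data known. Named genes were the 5 largest interactions in each class with at least 5 CPM in a group, the kindlin and integrin genes, and up to 4 members per list by p. The other genes that passed were named after their values were seen. Shared sequence is the percent of a gene's 75-base stretches found in other GENCODE transcripts. The procedure was run on simulated counts in which all libraries were drawn with the same spread per gene. That run therefore cannot test whether wild type has the spread of the mutant pairs. The alternatives were DESeq2 1.42.0, other factors and filters, each mutant library left out, a replicate block, removal of pancreatic markers and robust shrinkage.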

Additional observations from a re-analysis of the deposited data

Results flagged for a closer look

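Neither wild-type group was replicated, so a departure of a wild-type library alone and a difference of genotype cannot be told apart. Within that limit, 42 genes passed the interaction test. Those named by rule were Gsta3 (-3.13), Serpinb9b (-3.51), Gprc5b (-3.47) and Cd109 (-2.91) with a weaker induction in the mutant, and Sdc1 (-4.19) and Col18a1 (-3.30) with opposite directions. C5ar1 (-2.83), Gpr183 (-2.53), Fos (-2.28), Dusp1 (-2.19) and Calcrl (-2.10) fell at least 2-fold in the mutant and changed less or the other way in wild type, and Il16 (2.33) and Herpud1 (2.18) had a higher response in the mutant, each value a log2 interaction. The fitted value of Gm14548, -10.23, rests on 0 counts in untreated wild type and is not an estimate of its size. Pancreatic markers, which the counts leave out, summed to 309 CPM in untreated wild type.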

How the results depend on the processing

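The count of 42 genes was 194 with DESeq2, 517 with no filter on low counts, 22 with pancreatic markers removed and 7 to 219 with 1 mutant library left out. For a lower response in the mutant (38) these values were 159, 349, 20 and 6 to 195, and for a higher response (4) they were 35, 168, 2 and 1 to 24. The genotype difference in untreated cells (871 genes) was 2405 with no filter and 68 to 1793 with a library left out. In oxLDL-treated cells (49) it was 371 with DESeq2, 947 with no filter, 29 with pancreatic markers removed, 82 with robust shrinkage and 4 to 452 with a library left out. The oxLDL change in the mutant (4486) ranged from 2603 to 4028 with a library left out. Weaker induction (26) ranged from 4 to 83, stronger fall (7) from 1 to 75 and a higher baseline (32) from 6 to 153. With a limit of 4-fold, weaker induction held 17 genes and a higher baseline 14, and at a false discovery rate of 0.01 these and stronger fall held 0. In wild type 3215 genes differed at least 2-fold, 1795 on log2(CPM + 2). Itgb2, which did not pass, changed sign without mutant untreated replicate 1 (-0.005 to 0.164 over libraries left out). The causes were not tested.

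With the replicate number as a block the interaction gave 139 genes, 117 lower and 22 higher, and the genotype comparisons 1844 untreated and 443 with oxLDL. The labels do not say that the numbers pair the samples. Deviations of same-numbered mutant libraries had a correlation of 0.204 over 12659 genes.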
